A study of Mus musculus with 6 samples.

Results

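The mesenchymal transcription factors examined here are 10 genes in 5 pairs of paralogs, Twist1 and Twist2, Prrx1 and Prrx2, Snai1 and Snai2, Zeb1 and Zeb2, and Runx1 and Runx2. They were chosen by symbol, and all 10 were found among the 55401 genes of the expression table. Messenger RNA was measured in NIH-3T3, an established line of mouse embryonic fibroblasts grown in medium with fetal bovine serum. The 3 libraries of NIH-3T3 carrying a mutation (MU, genotype given as Mutation, treatment in both lines given as Cultural) were set against the 3 libraries of cells labelled WT. The labels give neither the gene that was mutated nor whether MU is a single clone, so any difference between the lines other than the mutation cannot be told apart from it. They do not say either that replicates were separate cultures, and p-values then measure only the spread between these libraries, which may be technical. Levels are in TPM, a unit that scales every library to the same total and corrects for transcript length and so allows genes to be compared within a library. TPM keeps no sequencing depth, and the depth is therefore unknown.

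These factors set and keep the state of connective tissue cells. Twist proteins are basic helix-loop-helix factors that act as dimers with E proteins, Snail and ZEB proteins are zinc-finger repressors that bind E-box sequences in promoters of epithelial genes such as Cdh1, and Prrx proteins are homeodomain factors of limb and craniofacial mesenchyme. RUNX proteins bind DNA through their Runt domain together with CBFb. RUNX1 is best known from blood stem cells and RUNX2 from osteoblasts, and both are also made in fibroblasts.

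All 10 genes were expressed in both lines, and 4 of them passed the test between MU and WT. Runx1 fell to less than its level in any WT library, Twist2 and Zeb2 fell as well, and Snai2 rose. The other 6, Twist1, Prrx1, Prrx2, Snai1, Zeb1 and Runx2, did not pass. A gene counted as called where limma gave an adjusted p (Benjamini-Hochberg, over all 14209 genes tested) below 0.05. By this rule 18.8% of all tested genes were called, 7.12% as higher and 11.6% as lower in MU, against 4 of the 10 factors, 1 as higher and 3 as lower. The share of higher calls among all called genes was 37.95%, and under other scalings it was 48.5% (mtDNA-encoded genes left out of the total), 48.3% (median of ratios) and 48.8% (quantile). Libraries of the groups did not overlap for 7 of the 10 factors and for 39.2% of all tested genes. The median log2 difference was −0.10 over the factors and −0.05 over all tested genes.

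**Figure D1:**
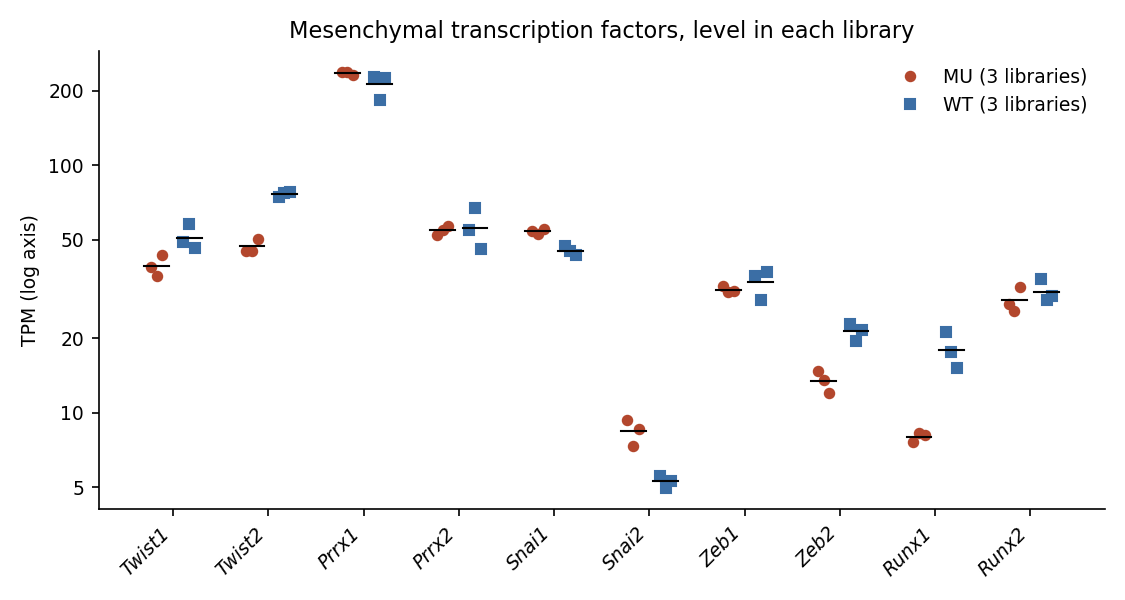
TPM of each factor on a log axis in the 3 MU libraries (circles) and the 3 WT libraries (squares), with black lines for the group means. The MU circles of Runx1, Twist2 and Zeb2 all lie under the WT squares, those of Snai2 above them, and Prrx1 is the most abundant factor in both lines.

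The stretches of DNA before the transcription starts are shown for Runx1, Twist2 and Zeb2, which fell, for Runx2, the paralog of Runx1 whose difference did not pass, and for Snai1, which did not pass either but whose window holds an E-box. The RefSeq table used has no entry for Snai2. Each is the 250 bases upstream of a RefSeq start in GRCm38.p6, written 5′ to 3′. Capitals mark CAGGTG, the E-box form preferred by Snail and ZEB proteins, or TGTGGT, the core bound by RUNX proteins, on either strand (reverse complements CACCTG and ACCACA). Runx1 has a distal and a proximal start, and the expression table does not separate their transcripts.
Runx1 distal start, chr16:92826075-92826324, minus strand: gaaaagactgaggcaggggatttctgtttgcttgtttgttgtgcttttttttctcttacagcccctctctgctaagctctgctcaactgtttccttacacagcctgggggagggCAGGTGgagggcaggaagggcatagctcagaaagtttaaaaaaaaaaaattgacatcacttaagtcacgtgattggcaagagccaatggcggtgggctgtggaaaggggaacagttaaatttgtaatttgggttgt
Runx1 proximal start, chr16:92697330-92697579, minus strand: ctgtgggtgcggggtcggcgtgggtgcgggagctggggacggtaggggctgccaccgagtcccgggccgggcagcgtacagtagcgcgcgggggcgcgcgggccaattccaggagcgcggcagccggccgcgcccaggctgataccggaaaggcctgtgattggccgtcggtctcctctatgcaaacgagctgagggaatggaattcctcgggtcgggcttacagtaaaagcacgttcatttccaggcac
Runx2, chr17:44814628-44814877, minus strand: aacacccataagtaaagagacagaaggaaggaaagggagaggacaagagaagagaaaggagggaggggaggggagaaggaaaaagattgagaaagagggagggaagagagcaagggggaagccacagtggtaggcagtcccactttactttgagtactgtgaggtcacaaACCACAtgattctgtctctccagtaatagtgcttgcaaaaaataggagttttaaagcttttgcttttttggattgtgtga
Twist2, chr1:91801211-91801460, plus strand: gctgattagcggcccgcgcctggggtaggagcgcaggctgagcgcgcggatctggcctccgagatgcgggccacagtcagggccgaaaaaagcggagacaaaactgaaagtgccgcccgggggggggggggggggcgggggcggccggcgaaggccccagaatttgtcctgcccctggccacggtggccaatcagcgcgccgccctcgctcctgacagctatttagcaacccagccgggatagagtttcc
Zeb2, chr2:45117443-45117692, minus strand: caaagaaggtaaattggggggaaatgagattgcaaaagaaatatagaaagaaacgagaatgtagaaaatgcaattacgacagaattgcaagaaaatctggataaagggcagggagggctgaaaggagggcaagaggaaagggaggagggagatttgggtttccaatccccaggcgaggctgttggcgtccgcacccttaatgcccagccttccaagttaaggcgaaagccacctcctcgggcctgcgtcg
Snai1, chr2:167537945-167538194, plus strand: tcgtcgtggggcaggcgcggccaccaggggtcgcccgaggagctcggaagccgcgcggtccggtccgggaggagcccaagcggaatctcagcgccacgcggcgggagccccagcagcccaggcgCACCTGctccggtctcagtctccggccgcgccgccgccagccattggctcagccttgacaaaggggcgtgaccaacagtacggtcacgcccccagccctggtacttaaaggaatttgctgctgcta

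CAGGTG occurred in 1 place before the distal start of Runx1, with its first base at position −136 from the start, and in 1 place before Snai1, at −126. TGTGGT, written there as ACCACA, occurred in 1 place before Runx2, at −80. The proximal window of Runx1, the window of Twist2 and the window of Zeb2, taken before its most upstream start, held neither motif. Of 12 such windows counted for 8 of the factors, 2 held CAGGTG and 1 held TGTGGT. Zeb2 supplied 4 of the 12, and some of its windows overlap, so the 12 are not separate stretches. Windows on the chromosome of Zeb1 were left out of this count, so Zeb1 is not among them. Over 32851 windows of the same length before all mouse RefSeq starts, that chromosome included, 17.2% held CAGGTG and 14.05% held TGTGGT. A match describes letters in a window and was not tested as a binding site.

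Runx1 (ENSMUSG00000022952.17, chromosome 16, 92601466 to 92826149, minus strand, GRCm38) encodes a Runt-domain factor. It stood at 7.63, 8.24 and 8.15 TPM in the MU libraries, against 21.1, 17.6 and 15.2 TPM in the WT libraries. Every MU library lay below every WT library, and the MU libraries lay closer together. The means were 8.01 ± 0.33 TPM in MU and 17.97 ± 2.98 TPM in WT (SD, n = 3 each), a log2 difference of −1.06 (SE 0.14, limma adjusted p = 0.0042) on the log2(TPM + 1) scale, which understates changes of low genes. Of all tested genes, 443 had a lower difference than Runx1. In the authors' deposited table the log2 fold change of Runx1 was −1.06 with an adjusted p of 4.0e-11. Protein-coding genes next to Runx1 were not lower as a group, since the median difference of up to 20 neighbours on each side was 0.18 on the log2 scale. The call of Runx1 held in all 18 alternatives.

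Runx2 (ENSMUSG00000039153.17, chromosome 17, 44495987 to 44814797, minus strand), the regulator of osteoblast formation, was at 27.6, 25.8 and 32.1 TPM in MU and at 34.5, 28.4 and 29.6 TPM in WT. The groups overlapped, and the log2 difference was −0.11 (SE 0.12, limma adjusted p = 0.58) with a 95% confidence interval of −0.40 to 0.18. Runx1 supplied 22.0% ± 2.01 of the summed TPM of the pair in MU and 36.7% ± 2.37 in WT (mean ± SD, n = 3 each). The difference of −14.7 percentage points had a two-sided exact permutation p of 0.1 (0.125 adjusted over the 5 pairs), and 0.1 is the smallest value that 3 against 3 libraries allow. No MU library reached the lowest WT share. A share taken within a library does not depend on its scaling.

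The genes around RUNX moved in both directions. Cbfb, which encodes the non-DNA-binding partner that every RUNX protein needs, fell to 60.02 ± 3.51 TPM in MU, against 98.9 ± 14.2 TPM in WT (n = 3 each), a log2 difference of −0.70 (SE 0.12, limma adjusted p = 0.011). Cbfb did not pass without MU replicate 2 (adjusted p = 0.053, limma) or MU replicate 3 (also 0.053). Of the 10 RUNX partners listed, 8 were tested, 2 rose and 1 fell, with a median log2 difference of −0.06. Calls made up 37.5% of those tested, beside 18.8% of all tested genes. Without WT replicate 2 the falls numbered 2. The rises were in 2 of 5 listed Groucho-family genes. The other members Tle1, Tle3 and Tle5 did not pass, and Tle1 was lower in every MU library (35.5 ± 2.27 TPM in MU, 45.3 ± 3.50 TPM in WT, limma adjusted p = 0.053). Tle2 reached 25.5 ± 4.85 TPM in MU, against 10.6 ± 1.08 TPM in WT, and Tle4 reached 8.94 ± 0.19 TPM in MU, against 4.79 ± 0.68 TPM in WT. The call of Tle4 was lost without MU replicate 2 (limma adjusted p = 0.051). The third family member, Runx3, stayed under 1 TPM throughout and could not enter the test.

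Genes that RUNX2 is known to bind in bone and cartilage cells were measurable in part. Of 19 listed, 8 were tested, of which 3 rose and 2 fell, with a median log2 difference of −0.18. That is 62.5% called, beside 18.8% of all tested genes. Spp1, which encodes the secreted phosphoprotein osteopontin, fell to 468 ± 13.7 TPM in MU, against 1003 ± 115 TPM in WT (n = 3 each). Tnfrsf11b, the decoy receptor osteoprotegerin, fell to 7.27 ± 1.06 TPM in MU, against 14.55 ± 1.97 TPM in WT. In the other direction, the receptor gene Fgfr2 was at 31.9 ± 1.90 TPM in MU and 14.3 ± 0.54 TPM in WT, and the collagen gene Col1a1 at 613 ± 47.0 TPM in MU and 326 ± 27.4 TPM in WT. The osteoblast regulator Sp7 and the enzyme gene Alpl were under 1 TPM in every library.

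Twist2 (ENSMUSG00000007805.4, chromosome 1, 91801461 to 91848028, plus strand) had the smallest limma p of the 10 genes, while Runx1 had the smallest p in the authors' deposited table. It stood at 45.2, 45.2 and 50.45 TPM in MU, against 74.1, 77.0 and 77.8 TPM in WT. The groups were far apart relative to the spread within them. The means were 46.9 ± 3.04 TPM in MU and 76.3 ± 1.94 TPM in WT (SD, n = 3 each), a log2 difference of −0.69 (SE 0.08, limma adjusted p = 0.0033). The call held in all 18 alternatives, where the difference lay between −0.74 and −0.58. The median difference of its neighbours was −0.01.

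Twist1 (ENSMUSG00000035799.6, chromosome 12, 33957671 to 33959829, plus strand) was lower in every MU library, at 38.6, 35.7 and 43.45 TPM in MU and at 48.7, 57.8 and 46.2 TPM in WT. The gap between the groups was small beside the spread in WT, and the log2 difference of −0.37 (SE 0.12) did not pass (limma adjusted p = 0.081, 95% confidence interval −0.65 to −0.08). It passed with the correction for GC content and length (adjusted p = 0.018, limma). Twist1 made up 45.5% ± 1.17 of the summed TPM of the pair in MU and 39.9% ± 2.81 in WT (n = 3 each), with no overlap and a two-sided exact permutation p of 0.1 (0.125 adjusted). The summed level of the pair was 86.2 ± 6.82 TPM in MU and 127 ± 6.61 TPM in WT.

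Twist dimers depend on a pool of helix-loop-helix partners. The E protein genes did not pass, with Tcf3 at 121 ± 7.52 TPM in MU and 129 ± 16.3 TPM in WT, Tcf4 at 35.55 ± 1.03 TPM in MU and 38.7 ± 4.46 TPM in WT, and Tcf12 at 53.4 ± 1.21 TPM in MU and 47.2 ± 3.92 TPM in WT (n = 3 each, limma adjusted p = 0.51 or more for Tcf3 and Tcf4 and 0.22 for Tcf12). The Id genes, whose products bind E proteins but lack a DNA-binding region, rose. Id2 reached 125 ± 3.51 TPM in MU, against 42.6 ± 7.07 TPM in WT, a log2 difference of 1.55 (SE 0.13, limma adjusted p = 0.0011). Id1 reached 85.1 ± 6.29 TPM in MU, against 35.5 ± 6.31 TPM in WT, and Id3 reached 154 ± 15.2 TPM in MU, against 81.2 ± 11.5 TPM in WT. All 3 Id calls held in the 18 alternatives, scalings included. Of the 11 listed partners, 6 were tested, 3 rose and 0 fell, with a median log2 difference of 0.55 (limma; at an unadjusted p under 0.05 the numbers were also 3 and 0). Called genes were 50% of those tested, beside 18.8% of all tested genes. The remaining Id4, Hand1, Hand2, Tcf21 and Tcf15 were not tested because of their low levels.

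**Figure D2:**
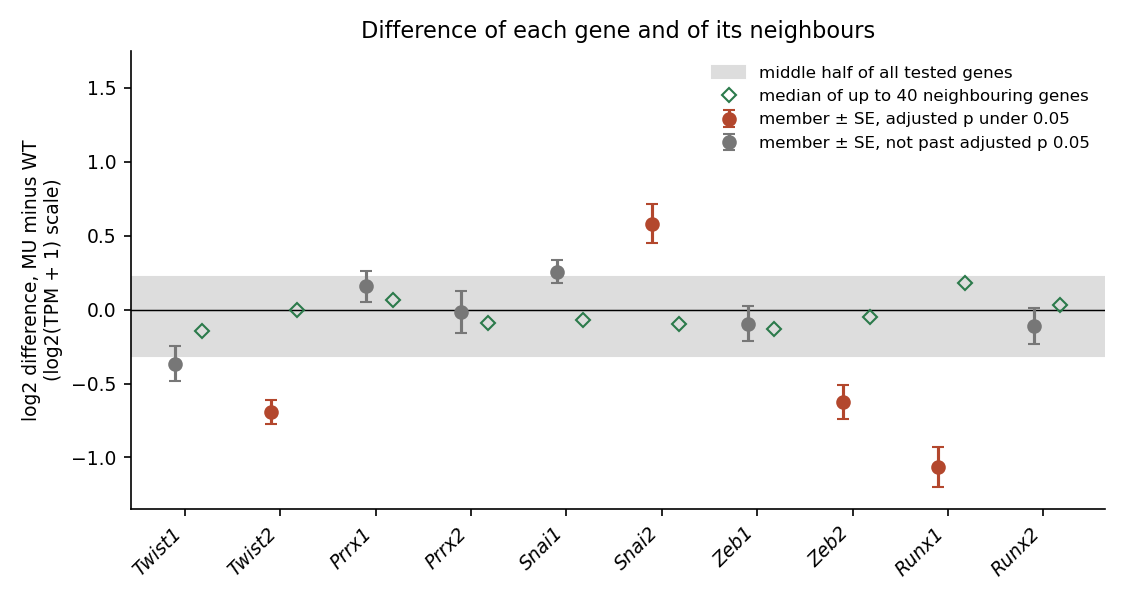
Log2 difference of MU minus WT for each factor (circles, ± SE, coloured where the adjusted p is under 0.05), with diamonds for the median difference of up to 40 neighbouring protein-coding genes and a band from the 25th to the 75th percentile of all tested genes. The 4 called factors lie outside the band, as do Twist1 and Snai1 by a small margin, while the neighbour medians of all 10 lie within it, between −0.14 (Twist1) and 0.18 (Runx1).

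Snai2 (ENSMUSG00000022676.7, chromosome 16, 14705852 to 14709385, plus strand), which encodes the repressor Slug, was the one factor that rose. It stood at 9.34, 7.32 and 8.58 TPM in MU, against 5.56, 4.94 and 5.32 TPM in WT. Every MU library lay above every WT library. The means were 8.41 ± 1.02 TPM in MU and 5.27 ± 0.31 TPM in WT (SD, n = 3 each), a log2 difference of 0.58 (SE 0.13, limma adjusted p = 0.026). The call was lost when any 1 library other than WT replicate 2 was left out, at adjusted p values of 0.051 (without WT replicate 3) to 0.10 (without MU replicate 1, limma), while the difference stayed between 0.51 and 0.67. In the authors' deposited table Snai2 had a log2 fold change of 0.68 and an adjusted p of 0.0031.

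Snai1 (ENSMUSG00000042821.7, chromosome 2, 167538195 to 167542814, plus strand), the founding Snail repressor, was far more abundant than Snai2. It stood at 54.1, 52.7 and 55.45 TPM in MU, against 47.1, 44.9 and 43.35 TPM in WT, again with no overlap. The log2 difference of 0.26 (SE 0.08, 95% confidence interval 0.07 to 0.44) did not pass (limma adjusted p = 0.063). It passed when totals left out mtDNA-encoded genes (0.038, limma) and under median-of-ratios (0.0298) and quantile scaling (0.019), and the authors' deposited table gives an adjusted p of 0.0485. Of the 10 factors, 5 in the authors' deposited table were under an adjusted p of 0.05, the 4 called here and Snai1, beside 21.1% of all genes with an adjusted p. Snai1 supplied 86.6% ± 1.26 of the summed TPM of the pair in MU and 89.5% ± 0.51 in WT (n = 3 each, two-sided exact permutation p = 0.1, 0.125 adjusted). The summed Snail level was 62.5 ± 2.18 TPM in MU and 50.4 ± 2.03 TPM in WT.

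Snail and Twist proteins are short-lived, and their level also depends on ubiquitin ligases and kinases. The list for protein turnover and kinases of Snail and Twist held 14 genes, all tested. Of them 0 rose and 4 fell in mRNA level, with a median log2 difference of −0.12 (limma). At an unadjusted p under 0.05 the numbers were also 0 and 4. The called share was 28.6%, beside 18.8% of all tested genes, of which 7.12% were higher and 11.6% lower. The falls numbered 2 without any 1 MU library. Fbxl14, an F-box protein that directs Snail and Twist to degradation, fell to 17.5 ± 0.37 TPM in MU, against 26.2 ± 3.16 TPM in WT (n = 3 each). Its call was lost without any 1 MU library (limma adjusted p = 0.061 to 0.074 over the alternatives that ended it). Pak1, a kinase that phosphorylates Snail, fell to 33.5 ± 3.11 TPM in MU, against 54.6 ± 4.76 TPM in WT, and held in all 18 alternatives. Siah1b, a RING ubiquitin ligase, fell to 9.32 ± 0.63 TPM in MU, against 16.8 ± 0.88 TPM in WT, and did not pass once centred on its chromosomal neighbours (adjusted p = 0.053, limma). Gsk3b and Btrc, the kinase and the ligase subunit that mark Snail for the proteasome, were at 22.8 ± 3.64 and 11.4 ± 1.30 TPM in MU and at 21.5 ± 2.88 and 11.0 ± 0.73 TPM in WT, and neither passed (adjusted p = 0.76 and 0.86, limma, both chosen after their values were seen).

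Zeb2 (ENSMUSG00000026872.18, chromosome 2, 44983632 to 45117395, minus strand) stood at 14.8, 13.6 and 12.1 TPM in MU, against 22.9, 19.5 and 21.6 TPM in WT. The groups did not overlap. The means were 13.5 ± 1.37 TPM in MU and 21.3 ± 1.68 TPM in WT (SD, n = 3 each), a log2 difference of −0.63 (SE 0.11, limma adjusted p = 0.013). The call was lost without MU replicate 2 (0.058), MU replicate 3 (0.054) or WT replicate 1 (0.052, limma), with differences of −0.63, −0.55 and −0.58. The authors' deposited table gives Zeb2 a log2 fold change of −0.59 and an adjusted p of 5.7e-05.

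Zeb1 (ENSMUSG00000024238.15, chromosome 18, 5591860 to 5775467, plus strand) was at 32.4, 30.7 and 31.1 TPM in MU and at 35.6, 28.6 and 37.2 TPM in WT. WT replicate 2 lay below all MU libraries and the other WT libraries above them. The log2 difference was −0.09 (SE 0.12, limma adjusted p = 0.62, 95% confidence interval −0.37 to 0.18). Chromosome 18 as a whole was lower in MU, with 82.45% of its 302 tested protein-coding genes below 0 and a median of −0.28. This was not particular to chromosome 18, since chromosome 8 had a median of −0.32 with 80.39% of genes below 0. Other chromosomes had medians above 0, such as chromosome 10 (0.096). The median difference of the neighbours of Zeb1 was −0.13. After centring on these neighbours, relative to the median of all tested genes, the difference of Zeb1 was −0.01. Zeb1 made up 70.0% ± 1.79 of the summed TPM of the pair in MU and 61.2% ± 1.93 in WT (n = 3 each), with no overlap and a two-sided exact permutation p of 0.1 (0.125 adjusted).

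Among genes listed for corepressors of ZEB and Snail proteins, 12.5% of those tested were called, beside 18.8% of all tested genes. The 19 listed genes include Zeb1 and Zeb2 themselves and the Snail-related Snai3, Scrt1 and Scrt2, which were too low to be tested. In all 16 were tested, 0 rose and 2 fell, with a median log2 difference of −0.19 (limma; 1 higher and 2 lower at an unadjusted p under 0.05). Besides Zeb2, the fallen gene was Ctbp1, whose product binds ZEB proteins, at 166 ± 3.74 TPM in MU and 237 ± 21.9 TPM in WT (n = 3 each, log2 difference −0.51, SE 0.09, limma adjusted p = 0.013). Its call was lost without any 1 of the MU libraries (0.058 to 0.064 over the alternatives that ended it). Its paralog Ctbp2 was at 28.6 ± 1.67 TPM in MU and 33.8 ± 2.96 TPM in WT and did not pass (adjusted p = 0.16, limma). The falls of the list numbered 5, beside 1 rise, without WT replicate 2, 0 without MU replicate 2 or 3, and 1 without MU replicate 1 or WT replicate 1.

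Prrx1 (ENSMUSG00000026586.16, chromosome 1, 163245119 to 163313710, minus strand) was the most abundant of the 10 factors, at percentile 96.6 of the tested genes by level in MU and 95.7 in WT. It stood at 238, 239 and 231 TPM in MU and at 228, 184 and 226 TPM in WT. The MU libraries were all slightly higher, and WT replicate 2 was lower than the rest. The log2 difference of 0.16 (SE 0.10, 95% confidence interval −0.09 to 0.41) did not pass (limma adjusted p = 0.35). It was 0.06 without WT replicate 2 and passed with the GC and length correction (0.21, adjusted p = 0.0405, limma).

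Prrx2 (ENSMUSG00000039476.13, chromosome 2, 30834972 to 30881251, plus strand) was at 52.0, 54.9 and 57.0 TPM in MU and at 54.6, 66.9 and 46.0 TPM in WT. The MU libraries fell within the range of the WT libraries, and the log2 difference was −0.02 (SE 0.14, limma adjusted p = 0.95, 95% confidence interval −0.35 to 0.32). The sign of this difference depended on the scaling. Prrx1 made up 81.2% ± 0.93 of the summed TPM of the pair in MU and 79.0% ± 5.07 in WT, and the groups overlapped (n = 3 each, two-sided exact permutation p = 0.8).

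**Figure D3:**
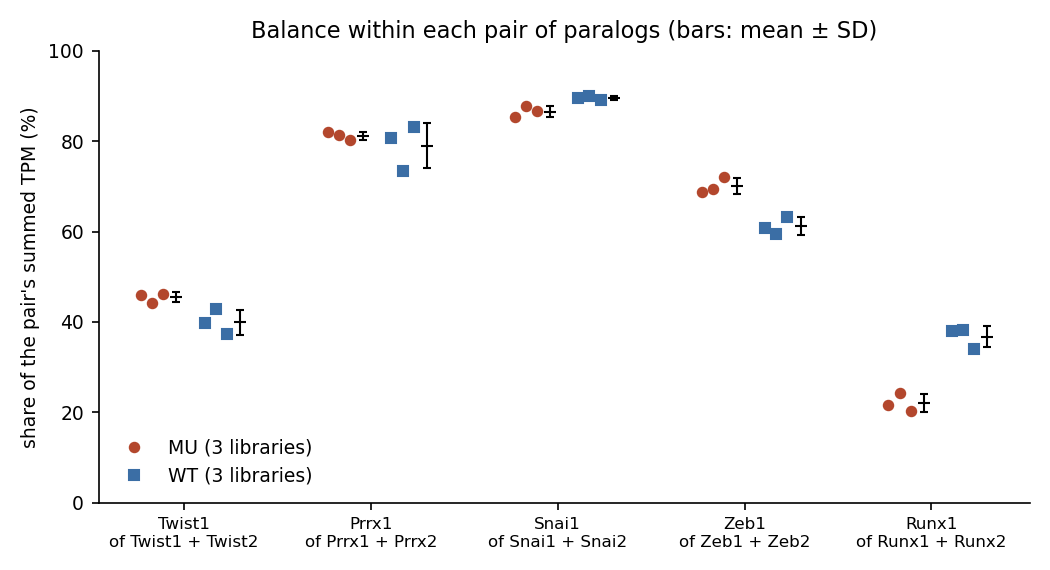
Share of the summed TPM of each pair that came from the first paralog, in percent, for the 3 MU libraries (circles) and the 3 WT libraries (squares), with mean ± SD beside each group. Groups are apart in 4 of 5 pairs, most widely for Runx1 (22.0% in MU, 36.7% in WT), and overlap for Prrx1. These shares use the same values as the tests of the single factors. Among single tested genes, groups did not overlap for 39.2%, and no such share was worked out for pairs of other genes.

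Ordered by level, Prrx1 led in both lines. In MU it was followed by Prrx2 and Snai1, whose ranges overlapped, then by Twist2, Twist1, Zeb1 and Runx2 (the last 2 overlapping), Zeb2, and finally Snai2 and Runx1, which overlapped. In WT Twist2 came next after Prrx1, then Prrx2, Twist1 and Snai1, in which each neighbour overlapped the next, then Zeb1 and Runx2, which overlapped, Zeb2 and Runx1, which overlapped, and Snai2 at the bottom. The summed level of all 10 was 521 ± 8.02 TPM in MU and 550 ± 21.1 TPM in WT (SD, n = 3 each).

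Paralogs could in principle share reads. The longest identical stretch between annotated transcripts of a pair was 19 bases for Prrx, 23 for Twist, 23 for Snail, 26 for RUNX and 35 for ZEB. Antisense genes overlap exons of Twist2, Zeb2, Runx1 and Runx2, and a noncoding gene on the opposite strand overlaps those of Zeb1, each at 2.375 TPM or less on average in either line. How the authors' counting treated strand is not known from the sources, so such reads cannot be told apart from the factors' own.

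Among 44 other transcription factors of mesenchyme and limb, 23 were tested, 5 rose and 8 fell, with a median log2 difference of −0.36. Calls made up 56.5% of those tested, beside 18.8% of all tested genes. The falls with the smallest p were in Sox9, the regulator of cartilage, at 22.5 ± 1.08 TPM in MU and 67.9 ± 7.48 TPM in WT, in Foxc2, at 8.28 ± 1.42 TPM in MU and 26.1 ± 4.17 TPM in WT, and in Foxf1, at 0.20 ± 0.05 TPM in MU and 3.18 ± 0.87 TPM in WT (n = 3 each). In the other direction, Ebf1 reached 13.1 ± 0.97 TPM in MU, against 6.67 ± 0.56 TPM in WT, and Foxc1 reached 6.13 ± 0.09 TPM in MU, against 4.10 ± 0.16 TPM in WT. Calls of Sox9, Foxc2 and Ebf1 held in all 18 alternatives, and that of Foxf1 in each in which it was tested. Foxc1 passed in 10 of 18 and was lost without any 1 library other than WT replicate 2. Rises numbered 2 without MU replicate 1, 2 or 3 or WT replicate 3, and 3 without WT replicate 1. Falls numbered 4 without MU replicate 1, and 3 without MU replicate 2 or WT replicate 1.

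Epithelial genes that Snail and ZEB proteins repress were near 0 in both lines. Of 32 listed, 25 were under 1 TPM in every library and only 3 were tested, of which 1 rose and 0 fell (limma; also 1 and 0 at an unadjusted p under 0.05). That is 33.3% called, beside 18.8% of all tested genes. Cdh1, the E-cadherin gene, averaged 0.29 TPM in MU and 0.17 TPM in WT, and Epcam was listed at 0 in every MU library and averaged 0.07 TPM in WT. The gene that rose was Jup, which encodes plakoglobin, a catenin of adherens junctions and desmosomes. Jup reached 40.6 ± 1.73 TPM in MU, against 18.4 ± 1.94 TPM in WT (n = 3 each, log2 difference 1.11, SE 0.10, limma adjusted p = 0.0014), and held in all 18 alternatives.

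Genes of the mesenchymal programme changed in both directions. Of 32 listed, 28 were tested, 12 rose and 6 fell, with a median log2 difference of 0.12. Called genes were 64.3% of those tested, beside 18.8% of all tested genes. Acta2, the smooth-muscle actin of myofibroblasts, reached 977 ± 40.8 TPM in MU, against 143 ± 23.7 TPM in WT (n = 3 each). Among fibrillar collagens, Col5a2 was at 128 ± 2.55 TPM in MU and 47.9 ± 2.63 TPM in WT, and Col1a2 at 2180 ± 69.6 TPM in MU and 859 ± 50.7 TPM in WT. The matrix glycoprotein gene Tnc fell to 35.5 ± 0.90 TPM in MU, against 84.3 ± 9.05 TPM in WT. Spp1 also belongs to this list, and Cdh11, a mesenchymal cadherin, was listed at 0 in all 3 MU libraries and at 1.61, 1.10 and 2.01 TPM in WT. Rises numbered 6 without MU replicate 1 or MU replicate 2. This list shares Col1a1 and Spp1 with the genes bound by RUNX2, and 10 genes with the fibroblast markers described next, whose 5 rises are all among its 12.

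**Figure D4:**
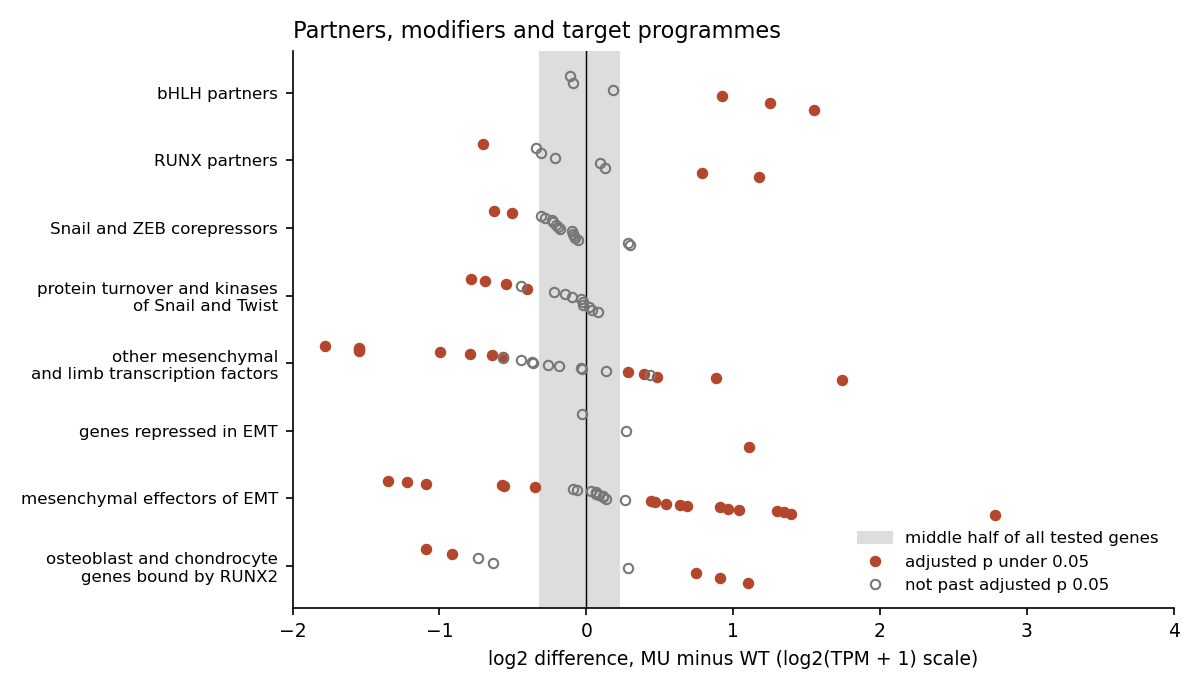
Log2 difference of MU minus WT for each tested gene of 8 lists, filled where the adjusted p is under 0.05, with a band from the 25th to the 75th percentile of all tested genes. The Id genes stand to the right among the helix-loop-helix partners, and the mesenchymal effectors spread to both sides.

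Some fibroblast markers were abundant in both lines and others low. Vim was at 4133 ± 59.5 TPM in MU and 3981 ± 628 TPM in WT, and Postn at 9.89 ± 1.74 TPM in MU and 5.96 ± 0.87 TPM in WT. The sum over the markers was 11420 to 11950 TPM in MU and 8966 to 10230 TPM in WT. Of 14 such markers 12 were tested, 5 rose (Col1a2, Col1a1 and Fn1 with the smallest p) and Dcn fell (8.13 ± 0.70 TPM in MU, 119 ± 19.7 TPM in WT), while Fbln1 was listed at 0 in every library. Lum was too low to be tested and lower in every MU library (0.06 ± 0.09 TPM in MU, 1.19 ± 0.45 TPM in WT). Calls made up 50% of the tested markers, beside 18.8% of all tested genes. The rises numbered 3 without MU replicate 1 or MU replicate 2. Since Runx1 is also a blood cell gene, leukocyte markers were examined beside it. Their summed level was 11.6 to 13.6 TPM in MU and 5.67 to 8.46 TPM in WT, of 12 genes 2 were tested, and Csf1r rose (5.34 ± 0.85 TPM in MU, 1.87 ± 0.11 TPM in WT). At an unadjusted p under 0.05 (limma), 2 were higher and 0 lower. The other tested marker was Cd68 (4.47 ± 1.34 TPM in MU, 2.56 ± 0.72 TPM in WT, limma adjusted p = 0.15). Of the untested ones, Lyz2 averaged 1.14 TPM in MU and 0.39 TPM in WT, and Laptm5 0 TPM in MU and 0.54 TPM in WT. Adgre1 and Tyrobp were listed at 0 in every library, and Ptprc averaged 0.15 TPM in MU and 0.17 TPM in WT. The part of these markers in the fall of Runx1 was not tested. Epithelial markers summed to at most 2.68 TPM, with Cldn4 listed at 0 throughout, and of 10 genes 1 was tested and 0 passed (limma; 0 at an unadjusted p under 0.05). Of 8 endothelial markers 2 were tested and Cdh5 fell (marker sums 6.001 to 8.45 TPM in MU and 8.99 to 15.0 TPM in WT), a call lost without any 1 MU library (limma adjusted p = 0.058 to 0.065 over the alternatives that ended it). Of 8 muscle markers 1 was tested and Acta1 rose (marker sums 4.26 to 4.49 TPM in MU and 0.94 to 1.91 TPM in WT) with Myod1, Myog and Myf5 listed at 0 throughout, and of 8 adipocyte markers 1 was tested and Lpl fell (marker sums 12.2 to 12.95 TPM in MU and 19.0 to 22.6 TPM in WT) with Cebpa and Cd36 listed at 0 throughout. The part of the endothelial, muscle and adipocyte markers in any result was not tested either. In bulk RNA, fewer cells of a kind and less RNA per cell cannot be told apart.

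Genes with similar profiles were sought for Twist2 and Snai2. Over the 6 libraries, the genes with the highest Pearson correlation with Twist2 were Kpna6 (r = 0.9996), Ube2z (0.998) and Fam217b (0.9975), and 726 of 11357 protein-coding genes exceeded 0.95. For Snai2 they were Usp18 (0.993), Pdgfrl (0.993) and Fbxo32 (0.992), and 173 genes exceeded 0.95. Usp18 (1.951 TPM in MU, 1.196 TPM in WT) and Fbxo32 (1.91 and 1.225 TPM) lay near the filter of 1 TPM. Neither was called (limma adjusted p = 0.127 and 0.158), while Pdgfrl was (0.021). These correlations describe 6 points that share the split between the lines and the scaling to a common total.

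The libraries resembled each other within the lines, with Pearson correlations across genes of 0.971 to 0.976 within MU and 0.949 to 0.966 within WT, against 0.937 to 0.945 between the lines. WT replicates 2 and 3 lay furthest apart in their dependence on GC content, with Spearman correlations of 0.33 and −0.25 between GC and a gene's deviation. The share of mtDNA-encoded TPM was 13.9% to 15.3% in MU and 8.60% to 12.45% in WT, without overlap, and lowest in WT replicate 2. With totals that leave those genes out, Runx1, Twist2, Zeb2 and Snai2 were still called. Transcripts of the factors range in GC content from 40.6% (Zeb2) to 63.6% (Prrx2). Twist2, Zeb2 and Runx1 fell and Snai2 rose past the threshold with the GC and length correction and without WT replicate 2 alike.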

How the data were processed

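Libraries of polyadenylated RNA were prepared with a stranded kit, per the labels' protocols. Per the submitters' processing notes the authors worked on mm10 with DESeq2 1.20.0, featureCounts 1.5.0-p3, HISAT2 2.05.0 and FastQC 0.11.4. Settings, annotation and strand handling were not given. The expression values are log2(TPM + 1), deposited by the authors for 6 libraries. TPM is scaled to a common total, so a few abundant transcripts can shift all others, and it holds no depth. A second deposited table gives the authors' mean TPM, log2 fold changes and p-values from DESeq2.

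Genes with at least 1 TPM in at least 3 libraries (14209) were tested on log2(TPM + 1), with pseudocount 1, by limma 3.58.1 with a trend in R 4.3.3, on 3 MU and 3 WT libraries without a block, and p-values were adjusted by Benjamini-Hochberg. On simulated data with 200 of 14209 genes changed, 6.25% of changes of 0.5 (log2), 46.6% of 1 and 93.7% of 2 were recovered, and 8.49% of calls were false. In the real data 18.8% of tested genes were called, far more than were changed in the simulation. The adjusted p depends on that share, so these rates need not hold for the real comparison. Family shares were compared by two-sided exact permutation (SciPy 1.17.1). Positions and GC content come from GENCODE M21 (GRCm38), which matched 55141 of 55401 gene IDs and 8 of the 10 factors with the same ID version. Promoter windows come from RefSeq, GRCm38.p6.

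Named are all 10 factors, the 3 rises and 3 falls with the smallest adjusted p of each of 14 lists (every called gene of lists under 12 genes), Cbfb, Ctbp1 and Ctbp2, and the 3 genes most correlated with the top factor in each direction. Further genes are named at or near 0, as uncalled E proteins or as widely used markers, and were chosen after their values were seen. Some genes that the rule names are not reported here. The factors and lists were chosen with earlier results of these data known. A set of 18 alternatives was run per gene. Position centring subtracted from MU values the neighbours' median difference, taken relative to the median of all tested genes.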

Additional observations from a re-analysis of the deposited data

How the results depend on the processing

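Runx1 and Twist2 passed in all 18 alternatives, with differences of −1.30 to −0.81 and −0.74 to −0.58 (log2). Same-numbered libraries did not deviate together (r = 0.0495, 0.0154 and −0.0744). These values cannot settle whether same-numbered libraries were handled together. The replicate block gave 456 genes higher and 637 lower, where 1012 and 1655 were called without it. It left 0 factors higher, and 17 list genes higher and 14 lower of 27 and 25. In this balanced design the block cannot move a difference, only its error: Snai2 (0.58) had a limma adjusted p of 0.077 and Zeb2 (−0.63) of 0.052. Family shares had an exact permutation p of 0.25, the smallest that 3 pairs allow, and Prrx of 0.75. Without the filter Snai2 (0.58) had an adjusted p of 0.064 (limma), with 0 factors higher. With pseudocount 5 the difference of Snai2 was 0.38, still called. Totals without mtDNA-encoded genes, median-of-ratios and quantile scaling and the GC and length correction each gave 2 factors higher, and the last gave 1570 genes higher. Snai1 was 0.32, 0.32 and 0.36 under the 3 scalings and was called. Under the GC and length correction Twist1 (−0.34) and Prrx1 (0.21) were called. Prrx2 turned to 0.0484, 0.0486, 0.0920, 0.0333 and 0.0200 under the 3 scalings, that correction and position centring. Leaving out 1 library gave 427 to 1153 genes higher and 644 to 2238 lower, 0 to 1 factors higher and 2 to 3 lower, and 16 to 27 list genes higher and 12 to 30 lower. It gave 0.51 to 0.67 for Snai2, −0.69 to −0.55 for Zeb2, −0.14 to 0.12 for Prrx2 (above 0 without MU replicate 1 or WT replicate 2) and −0.67 to 4.20 points for the Prrx share (below 0 without WT replicate 2). The causes were not tested. Depth is unknown. With 3 libraries a group small differences were seldom recovered in simulated data, in which fewer genes changed than were called here.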
